A study of Mus musculus with 28 samples.

Results

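Enterocytes, the absorptive cells of the small intestine, digest sugars and peptides with enzymes anchored in the brush border and take the products up through transporters. The 10 genes described here are Sis, Lct and Treh (disaccharidases), Alpi (a phosphatase), Anpep (a peptidase), Slc5a1, Slc2a5 and Slc2a2 (sugar transporters), Slc15a1 (a peptide transporter) and Vil1 (a microvillus actin bundler). They were chosen by gene name from a table of 54354 genes. All 10 were among the 12495 genes with enough counts to be tested. Their transcripts were compared between Lgr5-high and Lgr5-low cells of Lgr5-GFP mice kept on a control diet or fed cystine, in 4 groups of 7 libraries and 28 libraries in all. Lgr5-GFP is a reporter in which green fluorescent protein reports expression of Lgr5, a receptor of crypt stem cells, and it was shared by all 4 groups. Cystine is a pair of cysteine molecules joined by a disulfide bond. The sources used here do not give the animals' age or sex, the cystine dose or the length of feeding. A protocol label names organoids as the RNA source while the design text names populations isolated from tissue, and which holds is not settled. Separate animals are not stated for the 7 replicates, so p-values measure the spread between libraries, part of which may be technical.

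New epithelial cells arise from stem cells at the crypt base and move up onto the villus. Absorptive cells assemble their microvilli and switch on brush border enzymes and transporters as they leave the crypt, so that these transcripts are classical markers of enterocyte maturation. Expression also varies along the gut and with diet: fructose raises its own transporter, and lactase declines after weaning in most mammals. Transcription factors of the HNF1, HNF4, CDX and GATA families are known regulators of several of these genes.

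Depth ranged from 2.75 to 21.5 M counts (mega) per library, with group means of 14.8 M in Lgr5-high control, 6.84 M in Lgr5-high cystine, 8.53 M in Lgr5-low control and 13.6 M in Lgr5-low cystine libraries. Of 8 stem cell markers, 6 were higher in Lgr5-high than in Lgr5-low cells on control diet and 5 on cystine (adjusted p under 0.05 over all genes), the direction the sort labels give. Lgr5, the gene that the populations are named for, is among them on both diets, so its difference is not a separate check. Of 8 goblet cell markers 5 were lower in Lgr5-high cells on each diet, and of 10 enteroendocrine markers 6 were lower on control diet and 4 on cystine. Over all genes, 1.8% passed between the populations on control diet and 2.64% on cystine, in either direction. The summed level of 8 other enterocyte markers overlapped between populations, from 1880 to 11400 CPM (counts per M counts of the library, after scaling) in Lgr5-high control and from 5140 to 21200 CPM in Lgr5-low control libraries. All 8 were detected and all 8 had negative log2 differences, with none past the threshold. None of 5 kidney proximal tubule markers had enough counts to be tested. The 8 hepatocyte markers did not pass in any comparison but were present in all groups. Their summed level ran from 243 to 563 CPM in Lgr5-high control and from 244 to 552 CPM in Lgr5-high cystine libraries. In Lgr5-low libraries it ran from 182 to 577 CPM on control diet and from 218 to 842 CPM on cystine. In Lgr5-high cells on cystine, 7 of 10 macrophage markers were higher than on control diet, and 8 of 10 were higher than in Lgr5-low cells on cystine. Over all genes, 0.168% passed in the former comparison and 2.64% in the latter. The summed level of the macrophage markers ran from 21.1 to 571 CPM in Lgr5-high cystine, 23.6 to 52.8 CPM in Lgr5-high control and 29.9 to 120 CPM in Lgr5-low cystine libraries. The part of these other cells in the results below was not tested. A lower level in these bulk samples could be fewer enterocytes or less RNA per enterocyte, and these cannot be told apart.

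A few libraries stood apart for nearly all of the 10 genes. Lgr5-low cystine replicate 7 was the highest of its 7 libraries for 10 of the 10 genes, and Lgr5-high cystine replicate 6 for 9. Lgr5-high control replicate 4 was the lowest of its group for 8. The medians of the 10 genes and the calls they move are given below without them.

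Because the 10 genes varied together across libraries (below), the 250 bases before the start sites of 4 of them are shown with letters known from recognition sites of those factors. The genes are the 4 whose stretch held any of the letters given below, and the other 6 held none of them. Only those letters were searched. Other forms of the sites of these factors are not marked and may lie in any of the 10 stretches. Capitals mark a match on either strand, and positions count back from the base before the start site. The sequences are from RefSeq, on GRCm38.p6, written 5′ to 3′ on the strand of the gene.
Sis (chr3:72967864-72968113, minus strand): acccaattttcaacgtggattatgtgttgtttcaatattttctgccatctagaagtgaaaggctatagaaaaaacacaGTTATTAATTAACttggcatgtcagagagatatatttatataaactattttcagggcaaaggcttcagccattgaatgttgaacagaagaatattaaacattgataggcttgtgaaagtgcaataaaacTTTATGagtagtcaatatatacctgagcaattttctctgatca
Lct (chr1:128328319-128328568, minus strand): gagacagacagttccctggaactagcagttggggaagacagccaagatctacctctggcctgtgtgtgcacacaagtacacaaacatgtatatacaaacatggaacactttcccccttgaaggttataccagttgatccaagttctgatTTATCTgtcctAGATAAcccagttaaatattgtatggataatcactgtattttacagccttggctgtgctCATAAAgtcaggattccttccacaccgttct
Treh (chr9:44672983-44673232, plus strand): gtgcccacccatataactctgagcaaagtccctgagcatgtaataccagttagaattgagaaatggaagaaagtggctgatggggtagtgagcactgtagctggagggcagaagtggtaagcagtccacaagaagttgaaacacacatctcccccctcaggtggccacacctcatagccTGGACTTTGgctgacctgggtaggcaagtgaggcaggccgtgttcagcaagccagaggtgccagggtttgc
Alpi (chr1:87101607-87101856, minus strand): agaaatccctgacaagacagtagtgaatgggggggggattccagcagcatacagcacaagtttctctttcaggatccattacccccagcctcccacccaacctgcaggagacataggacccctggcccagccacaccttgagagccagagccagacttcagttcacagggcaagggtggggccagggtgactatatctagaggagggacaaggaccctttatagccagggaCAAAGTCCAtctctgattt
The stretch before Sis held GTTATTAATTAAC, letters of HNF1 sites (any base was allowed as the fifth and the seventh letter), at -172 to -160, and TTTATG, letters of CDX sites, at -43 to -38. The former occurred in 11 of 32851 RefSeq promoters of the same length (0.0335%) and the latter in 3536 (10.8%). The stretch before Lct held the CDX letters in reverse at -31 to -26 and AGATAA, letters of GATA sites, at -90 to -85 and in reverse at -101 to -96. The GATA letters occurred in 3281 promoters (9.99%). CAAAGTCCA, letters of HNF4 sites, lay at -19 to -11 before Alpi and in reverse at -71 to -63 before Treh, and occurred in 126 promoters (0.384%). No 2 of these letter sets overlapped. A match is a description of letters, not evidence of binding. The letters were chosen with these sequences in view, so how rarely they occur elsewhere is not a test.

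Sis encodes sucrase-isomaltase, which splits sucrose and the branched products of starch digestion, and lies on chromosome 3 (72888557 to 72967863, minus strand; GENCODE M21, GRCm38). In Lgr5-high control libraries it ranged from 26.3 to 279 CPM (median 180.0), and in Lgr5-low control libraries from 134 to 473 CPM (median 364). All 7 Lgr5-high libraries lay below the Lgr5-low median, but the groups overlapped, with 2 Lgr5-high libraries below every Lgr5-low one. The means were 156 ± 85.5 and 332 ± 121 CPM (SD, n = 7), a log2 difference of -1.10 ± 0.49 (SE), unadjusted p = 0.0333 and adjusted p = 0.326. On cystine Sis ranged from 28 to 274 CPM (median 76.6) in Lgr5-high and from 123 to 601 CPM (median 221) in Lgr5-low libraries. There 6 of 7 Lgr5-high libraries lay below the Lgr5-low median and 4 below every Lgr5-low library (log2 difference -1.22 ± 0.49, adjusted p = 0.205).

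Lct encodes lactase, the milk sugar hydrolase, on chromosome 1 (128284756 to 128328318, minus strand). It ranged from 6.70 to 63.7 CPM (median 49.8) in Lgr5-high control and from 39.1 to 100 CPM (median 82.9) in Lgr5-low control libraries. In Lgr5-low control, 5 libraries lay above every Lgr5-high one (means 42.7 ± 20.4 and 77.9 ± 21.8 CPM, log2 difference -0.87 ± 0.60, adjusted p = 0.611). On cystine the range was 5.01 to 121 CPM (median 19.6) in Lgr5-high and 11.9 to 169 CPM (median 29.0) in Lgr5-low libraries, a log2 difference of -0.49 ± 0.61. Each upper end was a single library: the next highest were 37.4 and 43.8 CPM. Without Lgr5-low cystine replicate 7 the Lct difference on cystine was 0.33 instead of -0.49, and without Lgr5-high cystine replicate 6 it was -1.26.

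Treh encodes trehalase, which splits the fungal and insect sugar trehalose, on chromosome 9 (44673233 to 44686305, plus strand). It ranged from 0.0504 to 9.62 CPM (median 3.60) in Lgr5-high control and from 2.02 to 13.9 CPM (median 5.61) in Lgr5-low control libraries. On cystine it ranged from 0 to 8.47 CPM (median 3.74) in Lgr5-high and from 1.3 to 23.5 CPM (median 5.3) in Lgr5-low libraries. The groups overlapped on both diets. The 0 is Lgr5-high cystine replicate 7, where a count of 0 allows up to 0.637 CPM (3 counts). The log2 differences were -0.95 ± 0.77 on control diet and -1.01 ± 0.79 on cystine, neither past the threshold (adjusted p = 0.683 and 0.612).

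Alpi encodes intestinal alkaline phosphatase, an enzyme of mature enterocytes that also dephosphorylates bacterial lipopolysaccharide, on chromosome 1 (87098002 to 87101606, minus strand). It ranged from 3.57 to 103 CPM (median 35.3) in Lgr5-high control and from 34.6 to 257 CPM (median 58.7) in Lgr5-low control libraries. The Lgr5-high control libraries fell apart, with 3 between 86.6 and 103 CPM and 4 between 3.57 and 35.3 CPM. On cystine the range was 6.07 to 76.3 CPM (median 19.6) in Lgr5-high and 30.7 to 255 CPM (median 63.8) in Lgr5-low libraries. The means on cystine were 29.2 ± 24.5 and 86.1 ± 77.2 CPM, a log2 difference of -1.58 ± 0.73 (unadjusted p = 0.042, adjusted p = 0.297). On control diet the log2 difference was -0.95 ± 0.72 (adjusted p = 0.657). Akp3, a near copy of Alpi, was listed at 0 to 1.5 CPM across all groups, and how reads were shared between the copies depends on the quantification.

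Anpep encodes aminopeptidase N, which trims amino acids from peptide ends, on chromosome 7 (79821803 to 79861059, minus strand). It ranged from 3.29 to 18.8 CPM (median 4.89) in Lgr5-high control and from 10.6 to 39.4 CPM (median 14.7) in Lgr5-low control libraries. Of the Lgr5-high libraries, 5 lay below every Lgr5-low library (means 8.34 ± 6.0 and 18.8 ± 10.8 CPM). The log2 difference was -1.16 ± 0.43, with unadjusted p = 0.0106 and adjusted p = 0.185. On cystine it ranged from 2.10 to 14 CPM (median 5.46) against 7.11 to 36.1 CPM (median 15.5). All 7 Lgr5-high libraries lay below the Lgr5-low median there, and the log2 difference was -1.33 ± 0.44 (unadjusted p = 0.00445, adjusted p = 0.0974). Without Lgr5-high cystine replicate 6, Anpep passed the threshold on cystine (-1.60, adjusted p = 0.0448).

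**Figure D1:**
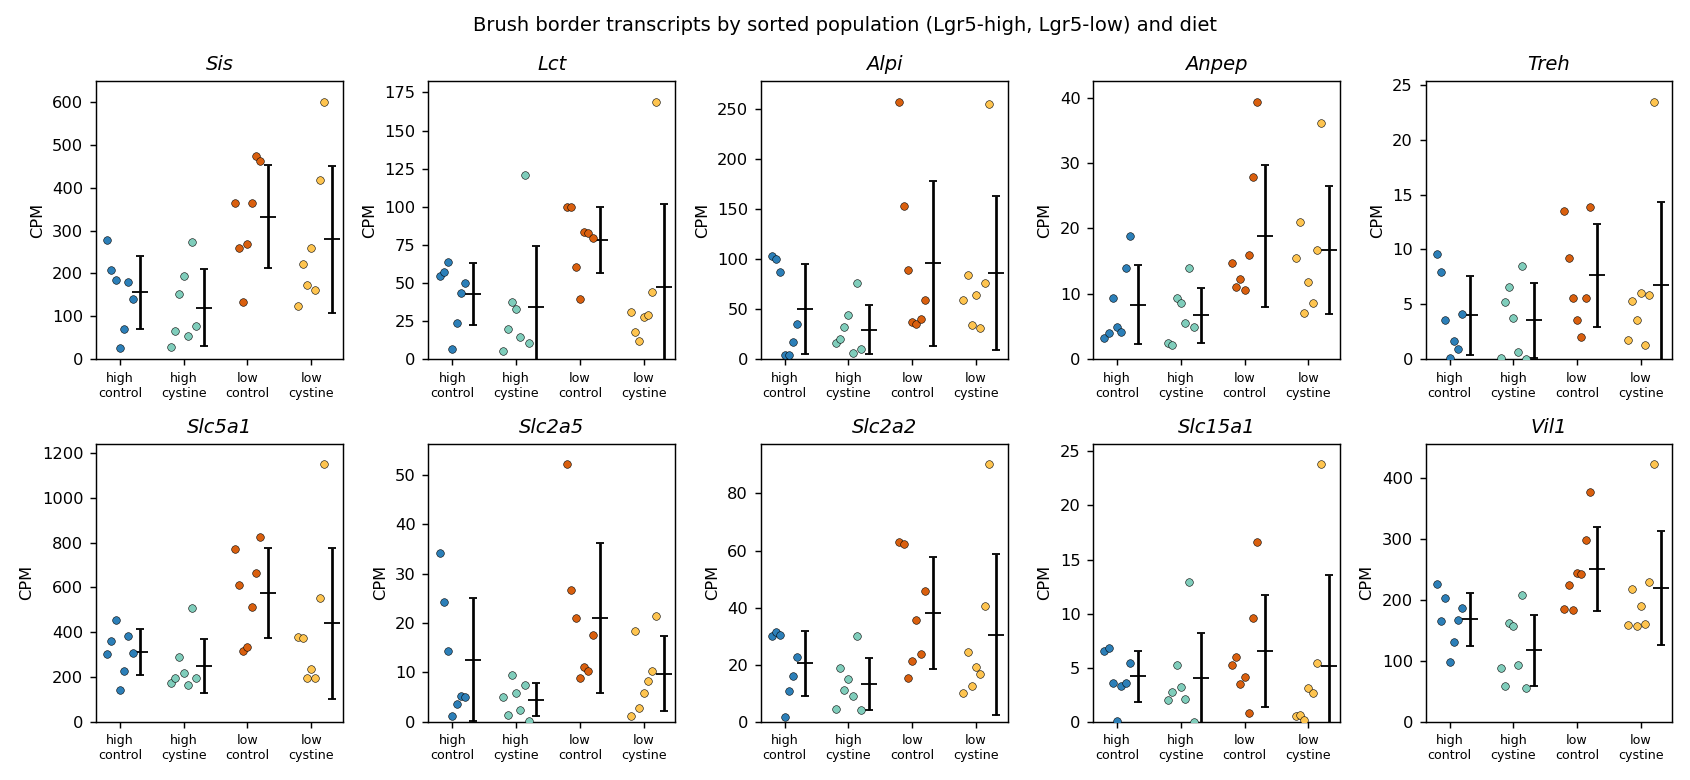
Level of each of the 10 genes in CPM (vertical axis, linear, starting at 0) in the 28 libraries, grouped by sorted population and diet. Each point is a library, the bar beside each group is the mean and SD over 7 libraries (cut at 0), and in Lgr5-low cystine replicate 7 is the highest point in all 10 panels.

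Among the sugar transporters, Slc5a1 encodes the sodium-coupled glucose and galactose transporter of the apical membrane, on chromosome 5 (33104219 to 33162870, plus strand). It ranged from 140 to 453 CPM (median 305) in Lgr5-high control and from 314 to 824 CPM (median 611) in Lgr5-low control libraries. All 7 Lgr5-high libraries lay below the Lgr5-low median and 5 Lgr5-low libraries above every Lgr5-high one. The means were 311 ± 103 and 575 ± 200 CPM, a log2 difference of -0.89 ± 0.35 (unadjusted p = 0.0174, adjusted p = 0.238). On cystine the range was 163 to 509 CPM (median 196) against 194 to 1150 CPM (median 373), with a log2 difference of -0.82 ± 0.35 (adjusted p = 0.241).

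Slc2a5 encodes the apical fructose transporter, on chromosome 4 (150119283 to 150144169, plus strand). It ranged from 1.16 to 34.2 CPM (median 5.27) in Lgr5-high control and from 8.87 to 52.1 CPM (median 17.5) in Lgr5-low control libraries. On cystine the range was 0.212 to 9.41 CPM (median 4.93) in Lgr5-high and 1.15 to 21.5 CPM (median 8.27) in Lgr5-low libraries. The populations overlapped on both diets, with log2 differences of -0.76 ± 0.64 and -1.14 ± 0.66 (adjusted p = 0.694 and 0.436).

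Slc2a2 encodes a facilitative transporter that carries glucose, galactose and fructose across the basolateral membrane, on chromosome 3 (28697903 to 28731359, plus strand). It ranged from 1.71 to 31.6 CPM (median 22.8) in Lgr5-high control and from 15.3 to 62.9 CPM (median 35.5) in Lgr5-low control libraries. On cystine the range was 4.03 to 30.2 CPM (median 11.2) against 10.1 to 90.2 CPM (median 19.2). All 7 Lgr5-high libraries lay below the Lgr5-low median on control diet and 6 on cystine. The log2 differences were -0.90 ± 0.54 (adjusted p = 0.533) and -1.25 ± 0.55 (unadjusted p = 0.0324, adjusted p = 0.262).

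Slc15a1 encodes the proton-coupled transporter of short peptides, on chromosome 14 (121459621 to 121505252, minus strand). It ranged from 0.0504 to 6.84 CPM (median 3.60) in Lgr5-high control and from 0.786 to 16.6 CPM (median 5.23) in Lgr5-low control libraries. On cystine it ranged from 0 to 12.9 CPM (median 2.79) against 0.168 to 23.8 CPM (median 2.65), so that the medians were nearly equal. Lgr5-high cystine replicate 7 had no count, which allows up to 0.637 CPM. The log2 differences were -0.63 ± 0.80 and -0.42 ± 0.80 (adjusted p = 0.818 and 0.88). Without Lgr5-low cystine replicate 7 the difference on cystine was 0.87.

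Vil1 encodes villin, which bundles actin in the microvillus core and is made along the crypt as well as the villus, on chromosome 1 (74409376 to 74435559, plus strand). It was the least variable of the 10 genes in Lgr5-high and Lgr5-low control libraries, with coefficients of variation of 25.8% and 27.3%. It ranged from 97.4 to 226 CPM (median 167) in Lgr5-high control and from 183 to 378 CPM (median 243) in Lgr5-low control libraries (log2 difference -0.58 ± 0.25, unadjusted p = 0.0259, adjusted p = 0.29). On cystine it ranged from 55.6 to 208 CPM (median 93.6) in Lgr5-high and from 157 to 423 CPM (median 191) in Lgr5-low libraries, and 4 Lgr5-high libraries lay below every Lgr5-low one. The means were 118 ± 58.6 and 220 ± 94.2 CPM, and Vil1 was lower in Lgr5-high cells by a log2 difference of -0.90 ± 0.25 (adjusted p = 0.0424). This call was lost without Lgr5-low cystine replicate 7 (-0.66, adjusted p = 0.18) and in 9 of the 28 fits that left out a single library, over which the adjusted p ran from 0.0116 to 0.18. Settings that also lost it included RLE size factors (adjusted p = 0.0559) and a fit that held no other groups (adjusted p = 0.114). In the same comparison 8 of 10 macrophage markers were higher in Lgr5-high cells (median log2 difference 2.39), where 2.64% of all genes passed in either direction. The part of these markers in the Vil1 difference was not tested.

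Between the populations, all 10 genes had negative log2 differences on each diet, Lgr5-high minus Lgr5-low, as did 50.6% of all genes on control diet and 52.8% on cystine. On control diet the median was -0.89 (range -1.16 to -0.58) against -0.01 for all 12495 genes. None of the 10 passed the threshold, where 1.8% of all genes did (225 genes; 127, or 1.02%, were lower in Lgr5-high cells). An unadjusted p under 0.05 was reached by 4 of the 10 and by 12.9% of all genes. Without Lgr5-high control replicate 4 the median was -0.71, with 10 negative. On cystine the median was -1.07 (range -1.58 to -0.42) against -0.04 for all genes, and 1 of 10 passed where 2.64% of all genes did (1.54% lower in Lgr5-high cells). There 6 of the 10 and 15.5% of all genes had an unadjusted p under 0.05. Without Lgr5-low cystine replicate 7, 8 of the 10 were negative on cystine with a median of -0.67 and none passed. Without Lgr5-high cystine replicate 6, all 10 were negative on cystine with a median of -1.34 and 2 passed. The 10 genes varied together, so their shared direction is not 10 separate observations.

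**Figure D2:**
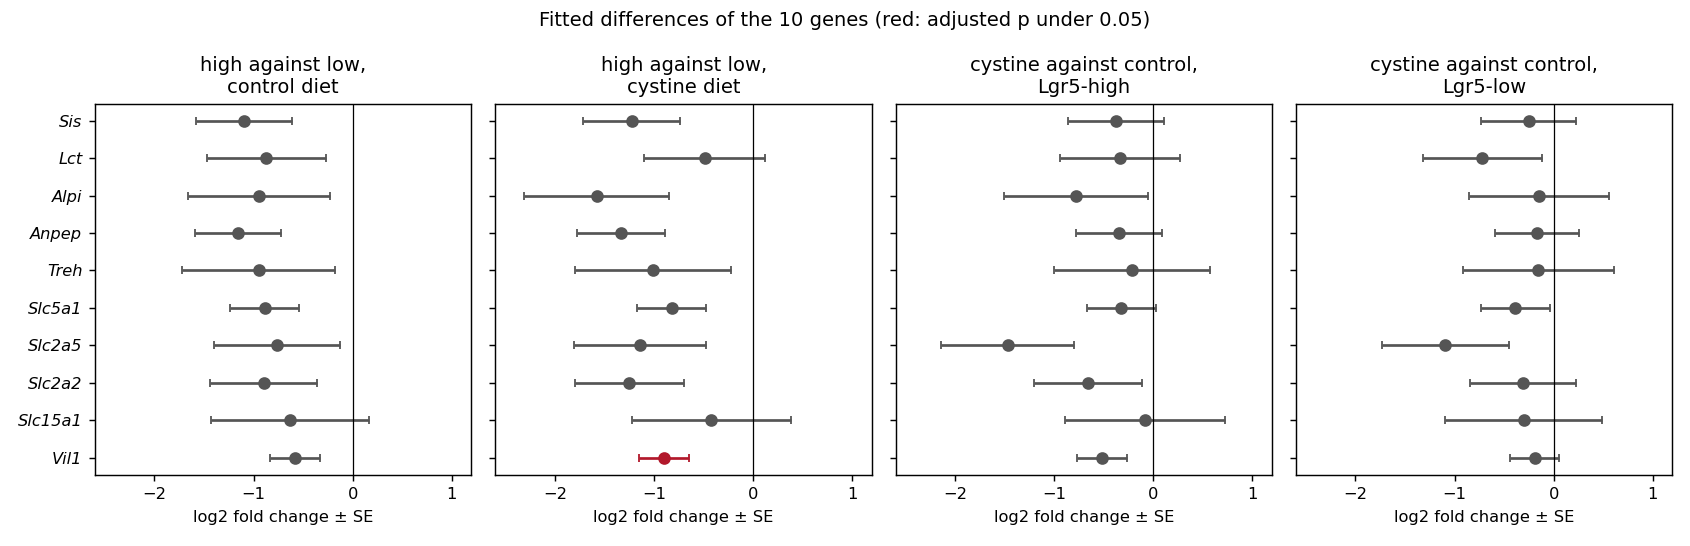
Fitted log2 fold change with its SE (horizontal axis) for each of the 10 genes in 4 comparisons, the sorted populations on either diet and the diets within either population. The estimates lie left of 0 in all 4 panels, and Vil1 on cystine (red) is the only adjusted p under 0.05.

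Per kilobase of exon, the order of the levels was headed by the same genes in each group. In Lgr5-low control libraries, mean levels per kilobase were 140 ± 48.8 CPM for Slc5a1, 70.8 ± 19.3 for Vil1, 44.5 ± 16.2 for Sis and 40.9 ± 35.4 for Alpi. Lct followed with 12.2 ± 3.40, Slc2a2 with 6.63 ± 3.39, Slc2a5 with 6.18 ± 4.45, Anpep with 4.55 ± 2.61, Treh with 3.73 ± 2.30 and Slc15a1 with 1.34 ± 1.06 CPM per kilobase. Sis and Alpi, Alpi and Lct, and each neighbouring pair from Slc2a2 to Treh were closer than the larger of their SDs. In Lgr5-high control libraries Slc5a1 (75.7 ± 25.1) and Vil1 (47.3 ± 12.2) again led, while Alpi (21.3 ± 19.3) and Sis (20.9 ± 11.4 CPM per kilobase) were not separated. On cystine the lead of Slc5a1 over Vil1 was 27.5 in Lgr5-high and 45.2 CPM per kilobase in Lgr5-low libraries. Both were smaller than the larger SD (29.7 and 82.7). Slc15a1 was last in all 4 groups, between 0.826 and 1.34 CPM per kilobase. Its gap to the next gene exceeded the larger SD only in Lgr5-low control libraries.

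The diet comparison asked whether cystine altered these transcripts in each population, and no member passed the threshold in either. In Lgr5-high cells all 10 genes had negative log2 differences, cystine minus control, with a median of -0.36 (all genes -0.024), while 0.168% of all genes passed (21 genes, all higher). Slc2a5 had the largest difference, 12.5 ± 12.4 CPM on control and 4.48 ± 3.34 on cystine (-1.47 ± 0.67, unadjusted p = 0.036, adjusted p = 1), and 3 of 7 control libraries lay above every cystine library, with the rest overlapping. Vil1 followed in p (-0.51 ± 0.25, unadjusted p = 0.0479, adjusted p = 1), with 4 of 7 cystine libraries below every control library. The other 8 lay between -0.78 (Alpi) and -0.09 (Slc15a1). In Lgr5-low cells the median was -0.28 (all genes -0.004), again with 10 negative values and none passed, of 0 genes in all (0%; 371 had an unadjusted p under 0.05). Slc2a5 measured 21.0 ± 15.1 on control and 9.75 ± 7.67 CPM on cystine (-1.10 ± 0.64, unadjusted p = 0.0977). Lct measured 77.9 ± 21.8 and 47.2 ± 54.8 CPM (-0.72 ± 0.60), and 5 of 7 cystine libraries lay below every control library. Without replicate 7 of Lgr5-low cystine, the Lct difference was -1.54 (adjusted p = 0.999). The median of the 10 in Lgr5-low cells was -0.86 without that library, and -0.143, -0.142 and -0.17 without Lgr5-low cystine replicates 1, 3 and 5. In Lgr5-high cells it was -0.715 without cystine replicate 6 and -0.545 without control replicate 4. Over all 28 fits without a single library it ran from -0.715 to -0.26 in Lgr5-high and from -0.861 to -0.142 in Lgr5-low cells. The 2 diet comparisons differed by -0.63 to 0.38 (log2, Lgr5-high minus Lgr5-low), with SEs of 0.354 to 1.13 and no member or other gene past the threshold (0%; 415 genes had an unadjusted p under 0.05). Of the 10 differences 7 were negative, with a median of -0.151. That median took both signs when single libraries were left out, from -0.455 without Lgr5-high cystine replicate 6 (10 negative) to 0.202 without Lgr5-low cystine replicate 7 (3 negative). It was -0.299 without Lgr5-high control replicate 4 (9 negative). SEs of the diet differences ran from 0.251 to 0.807 in Lgr5-high and from 0.25 to 0.789 in Lgr5-low cells. Differences near these sizes were not detectable at this spread. Some well above their SE did not pass either, such as Slc2a5 in Lgr5-high cells (-1.47 ± 0.67).

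On control diet, in both populations, Alpi and Slc2a5 followed a division of the libraries that the labels do not give. Xist, the RNA that coats the inactive X chromosome, was above 50 CPM in 18 libraries and below it in 10, control replicates 1 to 3 and cystine replicates 1 and 2 of both populations. This division was examined after Alpi and Slc2a5 had been seen to separate along it, so its p-values are not independent of that choice. On control diet Alpi measured 96.3 ± 8.50 CPM in the 3 Xist-low and 14.9 ± 15 CPM in the 4 Xist-high libraries of Lgr5-high cells, with no overlap. In Lgr5-low cells it measured 166 ± 85.1 and 42.5 ± 11 CPM, again with no overlap. Slc2a5 measured 24.3 ± 9.88 and 3.75 ± 1.88 CPM in Lgr5-high and 33.2 ± 16.6 and 11.9 ± 3.82 CPM in Lgr5-low control libraries, with no overlap in either. Sis (185 to 279 and 26.3 to 180 CPM), Lct (54.2 to 63.7 and 6.7 to 49.8) and Slc2a2 (29.9 to 31.6 and 1.71 to 22.8) did not overlap in Lgr5-high control libraries. These 3 genes overlapped in Lgr5-low control libraries. There Vil1 was without overlap in the other direction (183 to 224 and 243 to 378 CPM). The share of all genes without overlap was not counted. Fitted over both populations, the log2 difference on control diet, Xist-low minus Xist-high, was 2.34 ± 0.47 for Alpi (adjusted p = 0.00776) and 2.10 ± 0.36 for Slc2a5 (adjusted p = 0.000847). The other 8 did not pass, and 9.31% of all genes did (1163 genes). On cystine diet the differences were -0.58 ± 0.72 for Alpi and -0.20 ± 0.67 for Slc2a5, and no member passed, where 5.16% of genes did. Over all 28 libraries Alpi (adjusted p = 0.148) and Slc2a5 (0.0901) did not pass, where 17.1% of genes did. Between the populations, no member passed on control diet within the Xist-low (0.256% of genes passed) or the Xist-high libraries (5.6%). On cystine diet Alpi and Vil1 passed within the Xist-low libraries, 2 of 10 where 0.856% of genes did, and no member within the Xist-high libraries (3.71%). Xist class goes with replicate number, so animal sex, batch and any other property that splits the libraries alike cannot be told apart.

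In Lgr5-high cells the median of the 10 diet differences was of opposite sign in these classes. In the Xist-low libraries (2 cystine, 3 control) all 10 genes had negative values with a median of -1.54, and in the Xist-high libraries (5 and 4) 2 of 10 did with a median of 0.43. Sis measured 46.5 ± 26.1 CPM on cystine and 224 ± 49.1 on control in Xist-low libraries, and 150 ± 89.5 and 104 ± 68.9 CPM in Xist-high libraries. Alpi measured 18.0 ± 2.27 and 96.3 ± 8.50 CPM in the former, and 33.7 ± 28.5 and 14.9 ± 15 CPM in the latter. In a fit of the Xist-low libraries alone, Alpi (-2.47 ± 0.39, adjusted p = 0.00209), Vil1 (-1.46 ± 0.28, adjusted p = 0.016), Sis (-2.33 ± 0.44, adjusted p = 0.0305) and Lct (-2.37 ± 0.49, adjusted p = 0.0306) passed, 4 of 10 members where 0.288% of all genes did. None passed within the Xist-high libraries (0.328%). These calls rest on 2 cystine libraries. Their control libraries are the Xist-low ones in which Alpi and Slc2a5 had been seen to be high before the classes were examined. That choice favoured a negative value of Alpi, and the p-values are not independent of it. In a model of all 28 libraries with 8 groups (population, diet and Xist class), no member passed in the Xist-low class: Alpi was -2.43 ± 1.09 (adjusted p = 0.523) and Vil1 -1.43 ± 0.45 (adjusted p = 0.272), where 0.024% of genes passed, and none in the Xist-high class (0.088%). In Lgr5-high cells the difference of the diet effects between classes did not pass for any gene (0%). It was -2.82 ± 0.96 for Sis (unadjusted p = 0.00799, adjusted p = 0.611), -3.58 ± 1.33 for Alpi (unadjusted p = 0.0136, adjusted p = 0.644) and -3.20 ± 1.17 for Slc2a5 (unadjusted p = 0.0105, adjusted p = 0.628). In Lgr5-low cells the medians of the 10 diet differences were negative in both classes, -1.31 with 9 of 10 negative in Xist-low and -0.286 with 7 of 10 negative in Xist-high libraries. The class difference there passed for no member, where 0.112% of genes did.

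**Figure D3:**
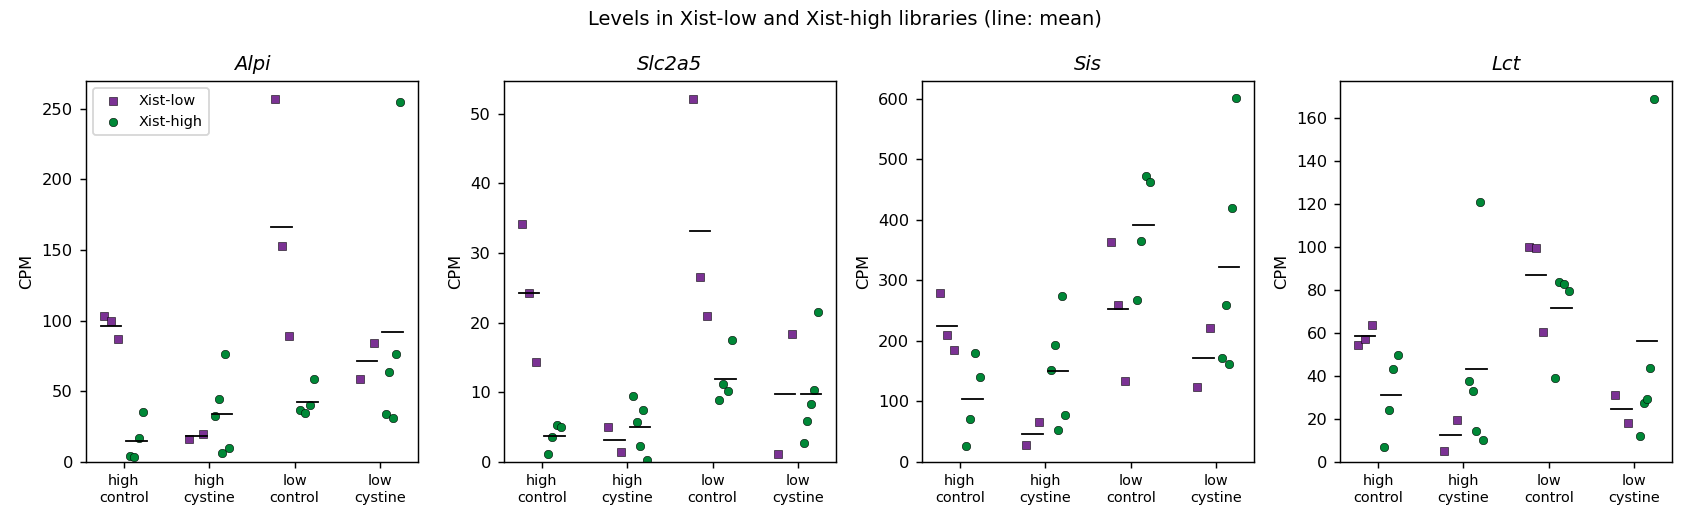
Levels of Alpi, Slc2a5, Sis and Lct in CPM (vertical axes, starting at 0) in Xist-low libraries (squares) and Xist-high libraries (circles) of each population and diet, with horizontal lines at the class means. On control diet the Xist-low squares of Alpi and Slc2a5 lie above the circles in both populations, and on cystine they do not.

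Across the 28 libraries the 10 genes varied together. Over the 45 pairs, Pearson correlations of log2(CPM + 0.5) ran from 0.39 to 0.87 (median 0.73), and after subtracting group means from 0.18 to 0.86 (median 0.70). Within groups Lct and Slc2a2 were the closest pair (0.86), and Anpep and Slc2a5 the least close (0.18). Anpep had the lowest median correlation with the other 9 genes, 0.45, against 0.64 to 0.78 for the others. The points share libraries, depth and normalisation, so these are descriptions of these libraries. Genes outside the set that were most like its mean included Apoa1, an apolipoprotein of lipid export (r = 0.96), and Npc1l1, the apical sterol transporter (0.95). Others were Cdhr2, an intermicrovillar cadherin, the cytochrome P450 genes Cyp3a13 and Cyp4f14, and Krt20, a keratin of villus cells (0.94 each), then Acsl5 and Lgals3 (0.93) and Slc9a3r1, an apical scaffold (0.92). After group means were subtracted, the same mean correlated with Fabp1, an enterocyte fatty acid binding protein (0.88), Apoa4 (0.85) and Mgam, the starch-digesting relative of Sis (0.79). It correlated at -0.57 with the crypt gene Olfm4, at -0.44 with Lgr5, at 0.43 with the goblet gene Muc2 and at 0.02 with the enteroendocrine gene Chgb. For Hnf4a and Cdx2, factors whose letters are marked above, it was 0.25 and -0.12. Other factors of those families are not given here, and the part of any factor in the shared variation was not tested. These last 9 genes were picked by role after values had been seen.

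**Figure D4:**
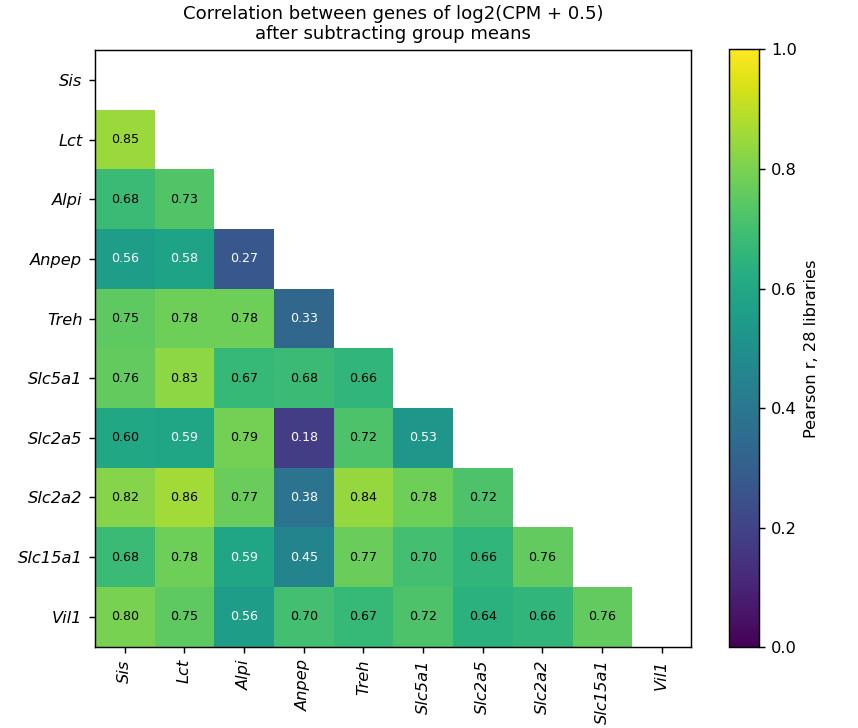
Pearson correlation, over 28 libraries, of log2(CPM + 0.5) between each pair of the 10 genes after the mean of each group was subtracted (colour scale 0 to 1, values printed in the cells). Most cells lie near the median of 0.70, and the row and column of Anpep hold the lowest value, 0.18.

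Related genes outside the set were mostly of the same sign, with few calls; over all genes, 50.6% were negative and 1.02% called lower on control diet, and 52.8% and 1.54% on cystine. Of 22 other brush border hydrolases 17 were tested, and 16 had negative log2 differences on control diet (median -0.605, all genes -0.01) with none past the threshold. Enpep, a glutamyl aminopeptidase, measured 24.7 ± 17.5 CPM in Lgr5-high and 63.6 ± 56.8 in Lgr5-low control libraries (-1.36 ± 0.64, adjusted p = 0.368). Mep1b, a meprin protease, measured 51.4 ± 27.7 and 97.7 ± 60.5 CPM (-0.92 ± 0.53, adjusted p = 0.505). On cystine only Acy1 passed, an aminoacylase of the cytosol and so not a brush border enzyme itself, at 24.3 ± 7.16 and 50.6 ± 13.6 CPM (-1.05 ± 0.21, adjusted p = 0.0028).

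Of 36 apical transporters 33 were tested, 29 were negative on control diet (median -0.688) and none passed. The lowest p belonged to Slc26a3, a chloride and bicarbonate exchanger (-0.99 ± 0.35, adjusted p = 0.149), Slc28a1, a nucleoside transporter (-3.72 ± 1.34, adjusted p = 0.167, at 0.0876 ± 0.205 and 1.39 ± 2.15 CPM), and Slc7a9, a subunit of the cystine and dibasic amino acid transporter (-1.32 ± 0.47, adjusted p = 0.173). Slc7a9 measured 29.4 ± 16.5 CPM in Lgr5-high and 73.5 ± 40.6 CPM in Lgr5-low control libraries. On cystine Abcg8, a sterol exporter subunit, was lower in Lgr5-high cells at 5.21 ± 1.85 and 12.4 ± 7.45 CPM (-1.24 ± 0.35, adjusted p = 0.0417). All 13 tested basolateral transporters were negative on both diets (medians -0.576 and -0.721), with none past the threshold. Among them were Slc7a8, a neutral amino acid exchanger (-1.57 ± 0.53 on control diet, adjusted p = 0.132), Slc51a, a bile acid exporter subunit (-1.09 ± 0.47, adjusted p = 0.305), and Slc40a1, the iron exporter (-1.10 ± 0.54, adjusted p = 0.378).

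Of 27 tested genes of microvillus structure 23 were negative on each diet (median -0.432 on control diet). On control diet Actg1, cytoplasmic actin, measured 570 ± 83.0 and 835 ± 197 CPM (-0.55 ± 0.16, adjusted p = 0.0559) and Myo1a, a brush border myosin, 105 ± 30.0 and 178 ± 47.2 CPM (-0.76 ± 0.22, adjusted p = 0.0568). Pls3, an actin bundler, was of opposite sign (14.1 ± 4.34 and 5.53 ± 2.60 CPM, 1.35 ± 0.44, adjusted p = 0.105). On cystine 3 were lower in Lgr5-high cells: Myo5b, a motor of apical traffic (-1.18 ± 0.28, adjusted p = 0.0143), Cdhr5, an intermicrovillar cadherin (-1.67 ± 0.41, adjusted p = 0.0193), and Eps8l2, an actin regulator (-0.92 ± 0.26, adjusted p = 0.0427).

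Of 22 tested enterocyte transcription factors 17 were negative on control diet (median -0.53) and none passed. Hnf4g measured 39.1 ± 11.8 and 66.1 ± 13.2 CPM (-0.76 ± 0.26, adjusted p = 0.134) and Klf5 109 ± 28.1 and 162 ± 59.1 CPM (-0.58 ± 0.21, adjusted p = 0.158). Isx, a homeobox repressor of carotenoid and lipid uptake genes, was lower in Lgr5-high cells on cystine at 41.3 ± 13.2 and 82.2 ± 35.3 CPM (-0.99 ± 0.26, adjusted p = 0.0297). Hnf4a measured 213 ± 35.3 and 213 ± 47.6 CPM on control diet (adjusted p = 0.999) and Cdx2 18.9 ± 6.55 and 18.2 ± 6.70 CPM (adjusted p = 0.973); both are named for the letters above.

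Of 15 tested genes that handle sugar after uptake, 14 were negative on control diet (median -0.528) and 3 passed in that direction. Khk, ketohexokinase, the enzyme that phosphorylates fructose, measured 73.1 ± 25.4 CPM in Lgr5-high and 139 ± 56.9 in Lgr5-low libraries (-0.93 ± 0.23, adjusted p = 0.0258). Pklr, a pyruvate kinase, measured 10.2 ± 5.21 and 22.4 ± 10.9 CPM (-1.13 ± 0.30, adjusted p = 0.0377), and Pgm2, a phosphoglucomutase, 15.4 ± 7.69 and 32.6 ± 8.10 CPM (-1.08 ± 0.27, adjusted p = 0.0248). Hk2, a hexokinase, was higher in Lgr5-high cells at 46.6 ± 7.02 and 25.6 ± 5.19 CPM (0.86 ± 0.21, adjusted p = 0.0203). On cystine Khk (-1.12 ± 0.23, adjusted p = 0.00556) and Pklr (-1.09 ± 0.30, adjusted p = 0.0424) passed, and Hk2 (adjusted p = 0.101) and Pgm2 (0.613) did not. Of 17 tested genes of villus position, 15 were negative on each diet, and Arg2, a mitochondrial arginase, passed on both (-1.19 ± 0.26, adjusted p = 0.00929, and -1.33 ± 0.26, adjusted p = 0.00273). Klf4, a factor of differentiated epithelium, did not pass on control diet (-1.05 ± 0.44, adjusted p = 0.276). In all 7 lists no gene passed in either diet comparison.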

How the data were processed

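The deposited table holds estimated counts (whole numbers) for each gene in 28 libraries. Per the submitters' processing notes, reads were quantified with Salmon 1.3.0 and the build was mm10; the annotation and how transcripts were combined into genes are not given. Per the labels' protocols, libraries were poly(A)-selected and strand-specific. Salmon assigns shared reads by a statistical model, so near copies such as Alpi and Akp3 depend on that division. Of 54354 gene identifiers, 51528 (94.8%) matched GENCODE M21 (GRCm38, the assembly of mm10), which gave coordinates and exon lengths. Genes without a symbol (1243, holding 0.00328% to 0.0111% of a library's counts) stayed in the tests.

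Differences were tested with the quasi-likelihood test of edgeR 4.0.16 (R 4.3.3; robust fit, TMM factors, filterByExpr) fitted to all 28 libraries at once, with a mean for each of the 4 groups. The tests were two-sided, with Benjamini-Hochberg adjustment over all 12495 genes tested and a threshold of 0.05. The same test, adjusted over the same genes, was used for the Xist classes. Levels are CPM with TMM factors, log values used a pseudocount of 0.5 CPM, and the limit for a count of 0 (3 counts) covers counting error only. Depth was 2.75 to 21.5 M counts per library. The model was tested on simulated data. Alternatives were DESeq2 1.42.0, sample-quality-weighted limma-voom (limma 3.58.1), RLE size factors, 2 filters, only the compared groups, terms for replicate number and Xist class, and leaving out libraries.

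The 10 genes, the gene lists and the tests were chosen with earlier results of these data known. From each list the 3 tested genes of lowest p between the populations on control diet were named, and any past the threshold where 5 or fewer were. The genes most like the set were the 10 with the highest correlation with its mean scaled log2 CPM, predicted genes left out. Fits within Xist classes and the 8-group model were added after the data had been seen, and the motif letters were chosen with the promoter sequences in view. Some genes that these rules would name are not reported here.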

Additional observations from a re-analysis of the deposited data

Results flagged for a closer look

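For each of the 10 genes and 4 groups, 40 sets of 7 libraries, the highest and the lowest library were compared with the nearest other, and 11 values stood apart by more than Dixon's limit for 7 values. Chance alone flags about 1 in 20 such sets if values are normally distributed. That rate was not measured for CPM, and all 11 values were the highest of their 7. The sets also share libraries and vary together. In Lgr5-low cystine replicate 7, Lct stood at 169 CPM (next highest 43.8), Alpi at 255 (83.8), Treh at 23.5 (6.0), Slc5a1 at 1150 (551), Slc2a2 at 90.2 (40.4), Slc15a1 at 23.8 (5.43) and Vil1 at 423 CPM (230). In Lgr5-high cystine replicate 6, the library of lowest depth (2.75 M counts), Lct stood at 121 CPM (next highest 37.4), Slc5a1 at 509 (290) and Slc15a1 at 12.9 CPM (5.23). In Lgr5-low control replicate 1, Slc2a5 stood at 52.1 CPM (26.6). Why these libraries stand apart was not tested.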

How the results depend on the processing

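Of 470 comparisons of a gene's log2 difference under another setting (leaving out a single library apart), 443 kept direction and side of the threshold, 22 changed sign, 4 lost the threshold and 1 passed it; for the fits without a single library these were 1345, 45, 9 and 1 of 1400. Among these, no sign changed between the populations on control diet; within Xist-low libraries, outside these counts, Slc15a1 (0.20) and Vil1 (0.0022) were positive there. The cause of the changes below was not tested. Within-class settings were added after the data had been seen.

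Genes past the threshold for cystine against control in Lgr5-high cells (main 21) numbered 89 with DESeq2, 38 with limma-voom with sample quality weights (voom below), 40 with only the compared groups, 41 with an Xist class term, 0 without libraries under 5 M counts, 41 within Xist-high and 36 within Xist-low libraries, and 7 to 43 without single libraries. In Lgr5-low cells (main 0) they numbered 4, 1 with voom and 3 within Xist-low libraries. For the difference of diet effects (main 0) they numbered 6 with voom, 1 without libraries under 5 M counts, 2 within Xist-high libraries and 0 to 2 without single libraries. Between the populations on control diet (main 225) they numbered 410 with DESeq2, 781 with voom, 144 with no low-count filter, 131 with only the compared groups, 409 with the replicate block of 14, 450 with the Xist class term, 700 within Xist-high, 32 within Xist-low libraries and 123 to 466 without single libraries. On cystine (main 330) they numbered 585, 880, 619 with the Xist class term, 107 within Xist-low libraries and 183 to 398.

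Of the 10 genes, 4 passed in Lgr5-high cells within Xist-low libraries. Between the populations on cystine (main 1, Vil1), 0 passed with RLE size factors, only the compared groups, either replicate block or within Xist-high libraries, 2 with the Xist class term (Anpep -1.49, adjusted p = 0.0264, and Vil1), 2 within Xist-low libraries (Alpi and Vil1) and 0 to 2 without single libraries. Vil1 was -0.87 with RLE size factors, -0.90 with the compared groups, and -0.88 (adjusted p = 0.054) and -0.94 (adjusted p = 0.0987) with replicate blocks of 7 and 14.

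Whether same-numbered libraries of the populations are paired is not settled. Over 14 pairs their deviations correlated at -0.083 to 0.239, 5 above 0.1, and 7 of 14 matched their own number best. Each was matched against 7 numbers, so equal odds would give fewer own matches than this. Xist class was also the same in same-numbered libraries of both populations on each diet. The main fit holds no pairing. A block of 14 cannot estimate a diet effect. Signs changed as follows. With the replicate block of 7, Alpi was 0.041 in the Lgr5-low diet comparison, Treh 0.22 in the difference of diet effects and Slc15a1 0.31 between populations on cystine. With the block of 14, Treh was 0.35, Slc2a5 0.29 and Slc2a2 0.12 in the difference of diet effects, and Slc15a1 0.78 between populations on cystine. With voom, Alpi was 0.16 in the Lgr5-low diet comparison, and Sis was 0.20 and Treh 0.12 in the difference, where DESeq2 gave Treh 0.025. With the Xist class term, Treh was 0.023 and 0.014 in the Lgr5-high and Lgr5-low diet comparisons and 0.0085 in their difference, and Alpi was 0.45 in Lgr5-low cells. Without libraries under 5 M counts, Anpep was 0.050, Slc15a1 0.35, Slc2a2 0.1 and Treh 0.33 in Lgr5-low cells, and Lct -0.86, Slc15a1 -1.39 and Slc5a1 -0.55 in the difference.

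Without single libraries, signs changed for Treh (-0.60 to 0.13) and Slc15a1 (-0.71 to 0.10) in Lgr5-high cells, and for Alpi (-0.72 to 0.33), Anpep (-0.48 to 0.11), Treh (-0.92 to 0.054) and Slc15a1 (-1.59 to 0.11) in Lgr5-low cells. In the difference of diet effects they changed for Sis (-0.47 to 0.18), Lct (-0.39 to 1.2), Anpep (-0.46 to 0.16), Treh (-0.44 to 0.71), Slc5a1 (-0.21 to 0.52), Slc2a5 (-0.79 to 0.11), Slc2a2 (-0.68 to 0.22) and Slc15a1 (-0.41 to 1.51). Between populations on cystine they changed for Lct (-1.26 to 0.33) and Slc15a1 (-1.04 to 0.87), and Vil1 ran from -1.10 to -0.66. Treh, Slc15a1 and Slc2a5 had 0 or 1 count in their lowest libraries.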

Other observations

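Ada and Apoa4, enterocyte genes that are high in the upper small intestine of mice, had the same division by Xist class as Alpi and Slc2a5 on control diet. Ada, adenosine deaminase, measured 130 ± 26.8 CPM in the 3 Xist-low and 17.0 ± 10.4 CPM in the 4 Xist-high Lgr5-high control libraries, and 144 ± 41.6 and 42.1 ± 31.6 CPM in Lgr5-low control libraries, with no overlap in either. Apoa4 measured 185 ± 12.3 and 34.8 ± 28.7 CPM, and 171 ± 37.8 and 54.3 ± 29.9 CPM, again with no overlap. On cystine diet both genes overlapped between classes in both populations. Over all genes, 9.31% passed between the classes on control diet, and the share of genes without overlap was not counted. Fabp6 and Slc10a2, genes of bile acid uptake in the lower small intestine, overlapped between classes in Lgr5-high control libraries, at 31.4 ± 27.5 and 109 ± 176 CPM for Fabp6 and 2.39 ± 3.85 and 3.10 ± 3.25 CPM for Slc10a2. In Lgr5-low control libraries Fabp6 overlapped as well (70.2 ± 69.3 and 275 ± 373 CPM), while Slc10a2 had no count in the 3 Xist-low libraries and measured 0.847 to 10.8 CPM in the 4 Xist-high ones. Other enterocyte genes did not all divide this way on control diet. Fabp1 ranged from 6660 to 8360 CPM in Xist-low and 670 to 6110 CPM in Xist-high Lgr5-high libraries, without overlap. In Lgr5-low libraries it overlapped (6590 to 15200 and 2780 to 17600 CPM). Krt20 overlapped in Lgr5-high (148 to 251 and 36.9 to 188 CPM) and in Lgr5-low libraries (173 to 356 and 152 to 319 CPM). All these genes were picked after the values of Alpi and Slc2a5 had been seen.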
